A study of Mus musculus with 27 samples.

Results

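The expression of 10 genes of 2 cytokine systems was followed through osteoblast differentiation: the IL-6 family ligands Il6, Lif and Il11, the family's receptor chains Osmr, Lifr and Il6st, the feedback inhibitor Socs3, and, from the IL-1 system, the receptors Il1r1 and Il1rl1 and the ligand Il33. They were chosen by name, with earlier results of these data known, and are 10 of the 37991 genes in each file. All 10 passed the filter on low counts that left 15659 genes tested. The cells came from calvariae of neonatal mice aged 5 to 9 days of the strain C57BL/6J-Col3.6 CFP, in which the Col3.6 promoter drives cyan fluorescent protein. Cells carrying the fluorescence were sorted after a first culture and then differentiated with ascorbic acid and beta-glycerol phosphate, and total RNA was taken on days 2, 4, 6, 8, 10, 12, 14, 16 and 18. The groups differ only in day: there is no other genotype, no untreated culture and no cytokine treatment. Each day has 3 profiles. The study calls them triplicate samples, but the profiles of a day carry 1 barcode, differ by sequencing lane and differed in counts by no more than sampling noise, so they were treated as 1 library and summed (n = 9 libraries, no replicate at any day).

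IL-6 family cytokines bind a receptor chain of their own and signal through the shared chain gp130, the product of Il6st, which activates JAK kinases and the transcription factor STAT3. LIF uses the LIF receptor and oncostatin M mainly the oncostatin M receptor, each paired with gp130, and SOCS3 is induced by STAT3 and shuts gp130 off again. IL-1 signals through the receptor encoded by Il1r1, and IL-33, a nuclear cytokine released on cell damage, through ST2, the product of Il1rl1. Both recruit MyD88 and lead to NF-kB. In bone, both systems are known for their effects on osteoblasts and on the osteoclasts that osteoblasts support.

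The summed libraries held 22470195 estimated counts on day 10 to 62009157 on day 12. Of 10 osteoblast markers 7 rose with day on the line (edgeR, adjusted p under 0.05), Bglap2, Ibsp, Dmp1 and Phex among them. None passed downward, and 3 did not pass on the line. Alpl, an early marker, lay between 0.467 and 17.6 TPM. Sp7 was at 32.3 TPM on day 2, 2.77 TPM on day 8 and 10.6 TPM on day 18 (log2 change -1.23, adjusted p = 0.233). Spp1 was at 402 TPM on day 2, 1012 TPM on day 6 and 532 TPM on day 18 (-1.17, adjusted p = 0.0932). All 10 changed over days when tested with a curve. Markers of other cells rose too: 6 of 7 macrophage markers and all 5 adipocyte markers passed the test upward. Of all genes tested, 28.3% passed upward. The macrophage markers summed to 24.1 to 61.7 TPM on days 2 to 6 and to 522 to 2014 TPM on days 14 to 18. Of these, Lyz2 alone was at 1855 TPM on day 18. The adipocyte markers summed to 3.21 to 7.44 TPM on days 2 to 6 and to 188 to 407 TPM on days 14 to 18. TPM is transcripts per 1000000, a level per transcript length. These rises run over the same days as the changes below, and their part in them was not tested. In bulk RNA, more or fewer cells of a type and more or less RNA per cell cannot be told apart.

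Promoter sequences are shown for the 3 ligands and the feedback gene because these were the ones that held a recognition motif of a factor acting downstream of these receptors: AP-1 (TGANTCA), NF-kB (GGGA, any base, TTTCC) and STAT (TTCNNNGAA), searched on both strands. Each is the 250 bases before the RefSeq start in mouse GRCm38.p6, a later build than that of the files, 5′ to 3′ on the strand of the gene, with the matches in capitals.
Il6, chr5:30012864-30013113, plus strand: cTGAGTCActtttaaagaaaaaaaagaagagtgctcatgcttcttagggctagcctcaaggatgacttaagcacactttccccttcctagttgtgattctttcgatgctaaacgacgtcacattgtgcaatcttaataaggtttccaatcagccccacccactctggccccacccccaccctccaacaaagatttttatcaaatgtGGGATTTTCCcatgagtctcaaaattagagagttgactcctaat
Lif, chr11:4257318-4257567, plus strand: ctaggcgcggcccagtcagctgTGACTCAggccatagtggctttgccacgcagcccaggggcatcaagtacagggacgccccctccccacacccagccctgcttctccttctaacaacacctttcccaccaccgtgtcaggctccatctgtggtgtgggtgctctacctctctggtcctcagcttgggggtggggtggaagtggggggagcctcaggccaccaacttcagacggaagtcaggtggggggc
Il11, chr7:4778142-4778391, minus strand: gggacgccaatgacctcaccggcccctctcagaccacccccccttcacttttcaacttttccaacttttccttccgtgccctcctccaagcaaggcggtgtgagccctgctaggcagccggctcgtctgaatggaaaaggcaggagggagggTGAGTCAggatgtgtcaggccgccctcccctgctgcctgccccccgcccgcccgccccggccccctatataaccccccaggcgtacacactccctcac
Socs3, chr11:117969367-117969616, minus strand: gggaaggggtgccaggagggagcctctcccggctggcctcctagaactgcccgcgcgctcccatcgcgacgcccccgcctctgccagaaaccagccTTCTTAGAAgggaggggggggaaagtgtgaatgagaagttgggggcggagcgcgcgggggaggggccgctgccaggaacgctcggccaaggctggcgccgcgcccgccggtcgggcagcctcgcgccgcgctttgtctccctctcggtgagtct
The AP-1 motif stood in the promoters of Il6, Lif and Il11 and in none of the other 7 genes' promoters, against 6.75% of 32817 mouse promoters of the same length. The NF-kB motif stood in the Il6 promoter only, its first base 44 bases before the start, against 0.357% of all promoters, and the STAT motif in the Socs3 promoter only, 154 bases before the start, against 7.01%. A second Il11 promoter held no match. The 10 genes have 15 RefSeq promoters in all. A match is a description of the sequence, and binding was not measured.

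Over the 9 days, 6 of the 10 genes followed day downward and 2 upward on a straight line in day (edgeR quasi-likelihood test, Benjamini-Hochberg adjusted p under 0.05). The lower ones were Il6, Lif, Il11, Osmr, Il1rl1 and Socs3, and the higher ones were Lifr and Il33. In these cultures most genes moved: 54.3% of all genes tested passed, 26.1% downward and 28.3% upward, so the count has to be read against that. The median fitted change from day 2 to day 18 was -1.54 on the log2 scale for the 10 genes and 0.05 for all genes tested. Since the 10 genes were chosen with earlier results known, these comparisons only describe them. The second test, a smooth curve in day that finds any change, called 8 of the 10, against 59.1% of all genes tested: it added Il1r1 and left out Il11.

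**Figure D1:**
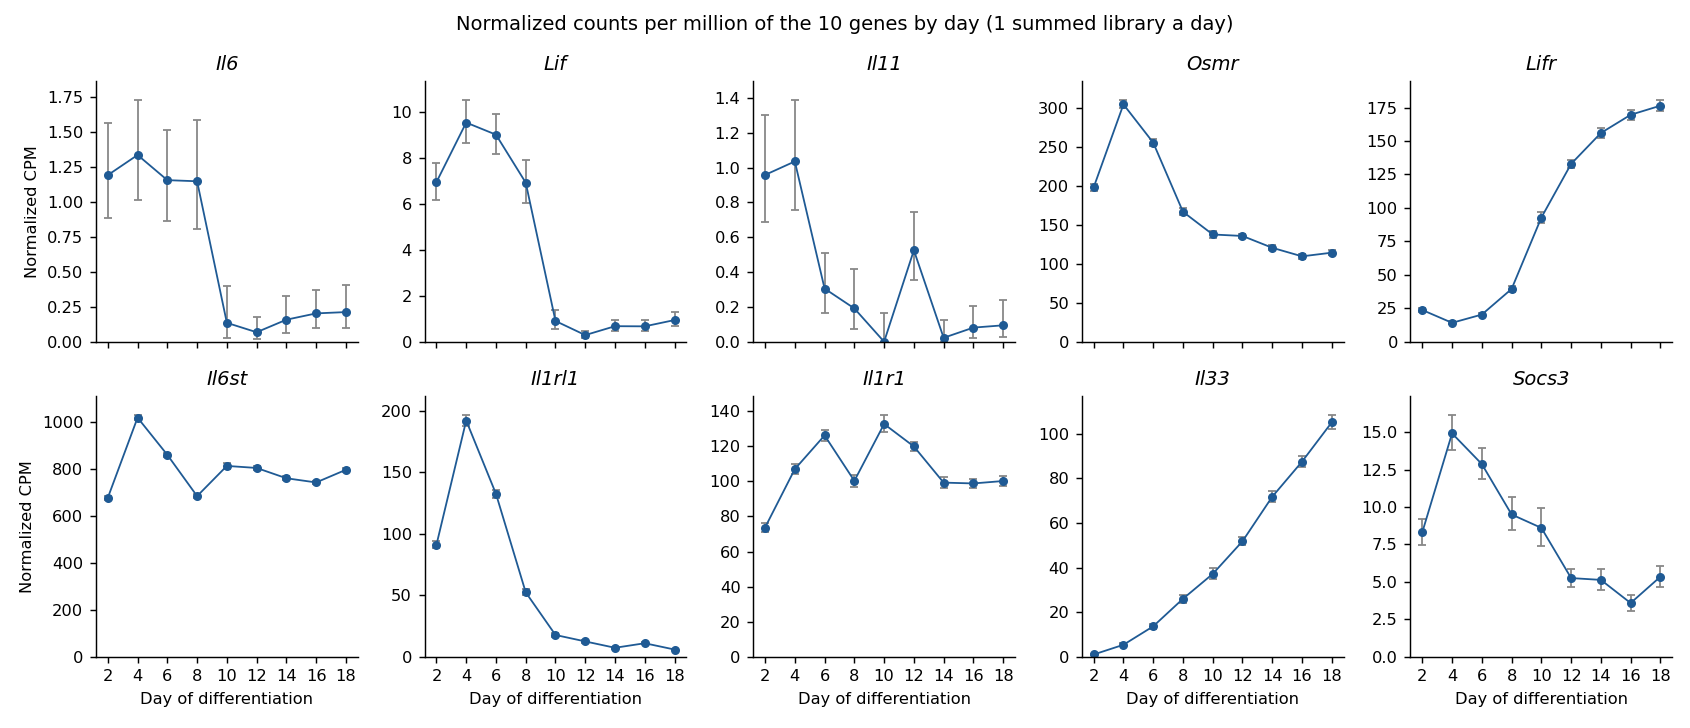
Normalized CPM (y axis from 0) of each gene by day of differentiation (x axis). Points are the 1 summed library of a day and bars the 95% Poisson interval of its count. Il6 and Lif stay high through day 8 and drop by day 10, Osmr, Il1rl1 and Socs3 peak on day 4, and Lifr and Il33 climb to day 18.

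The 3 ligands were low and fell. Il6 (ENSMUSG00000025746, chr5:30339701-30346508 in NCBIM37) encodes interleukin-6, a cytokine that acts on osteoblasts and osteoclast formation. Its level in normalized CPM, counts per 1000000 counts of the library, was 1.19, 1.34, 1.16 and 1.15 on days 2, 4, 6 and 8, and 0.135, 0.0678, 0.158, 0.203 and 0.212 on days 10 to 18. The first 4 days lie above the last 5 with no overlap, and the change falls between 2 neighbouring libraries: 36 counts on day 8 and 3 on day 10, a ratio of 8.49 with a 95% counting interval of 2.68 to 43.1. The intervals on single libraries cover counting error only and compare those libraries. On the line the fitted change was -3.66 ± 0.93 (SE, n = 9 days, adjusted p = 0.00702), and it ranged from -4.36 to -3.41 when each day was left out in turn.

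Lif (ENSMUSG00000034394, chr11:4157560-4172517) encodes leukemia inhibitory factor. It took the same step at a higher count: 6.94, 9.53, 9.01 and 6.92 CPM on days 2 to 8, then 0.901, 0.288, 0.676, 0.669 and 0.943 CPM on days 10 to 18. Again the first 4 libraries lie above the last 5. The day 8 library, with 217 counts, was 7.68-fold above day 10, with 20 (counting interval 4.85 to 12.8), and the fitted change over all days was -4.64 ± 1.00 (SE, adjusted p = 0.00288). Only 0.747% of the genes tested had a lower fitted change or the same one, and for Il6 it was 1.39%.

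Il11 (ENSMUSG00000004371, chr7:4724669-4734460), a ligand known to be made by bone marrow stromal cells and osteoblasts, had the fewest counts, 146 over all days. It was at 0.958 and 1.04 CPM on days 2 and 4 and at 0.305 and 0.191 CPM on days 6 and 8. On day 10 no count was seen, which allows up to 0.135 CPM (3 counts; the two-sided interval drawn in the plot reaches 0.166 CPM), and on days 14, 16 and 18 there were 1, 4 and 4 counts. Day 12 stood apart with 31 counts, 0.526 CPM, which were spread over its 3 profiles at 9 to 11 counts each. The fitted change was -3.63 ± 1.21 (SE, adjusted p = 0.0262). The call was lost without day 2, 4 or 16, where the adjusted p was 0.0735, 0.0833 and 0.0659, and the curve in day passed only without day 12 (adjusted p = 0.00288 against 0.0731 with it), with DESeq2 (0.0332) or without replicate 2 (0.0441).

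Of 12 listed ligands of the family, with these 3 counted, 7 were tested, 5 fell and 1 rose, with a median change of -1.86. Clcf1, cardiotrophin-like cytokine, fell from 17.6 TPM (day 2) to 4.49 TPM (day 18) (log2 change -1.86, adjusted p = 0.000796). Ctf1, cardiotrophin-1, went the other way, from 2.45 to 6.86 TPM (1.62, adjusted p = 0.000624). Osm, the ligand of the oncostatin M receptor and the neighbour of Lif on chromosome 11, 16530 bases away, never had more than 2 counts in a day, and Il31 had none.

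The receptor chains split. Osmr (ENSMUSG00000022146, chr15:6763577-6824313), the oncostatin M receptor, rose from 199 CPM on day 2 to a peak of 305 CPM on day 4, was at 256, 167, 138, 136, 121 and 110 CPM from day 6 to day 16, and ended at 115 CPM on day 18. All 3 libraries of days 2 to 6 lie above those of days 14 to 18. The fitted change was -1.40 ± 0.25 (SE, adjusted p = 0.00096).

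Lifr (ENSMUSG00000054263, chr15:7079559-7147489), the LIF receptor, lies 255245 bases from Osmr and moved in the opposite direction. Its level was 23.7, 14.1 and 20.3 CPM on days 2, 4 and 6, rose through 39.4 CPM on day 8 and 92.8 CPM on day 10, and was 133, 156, 170 and 176 CPM on days 12 to 18. From day 4 on, every library was above the one before it. The fitted change was 3.91 ± 0.52 (SE, adjusted p = 0.000194), and leaving out each day moved it between 3.59 and 4.54.

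Set side by side per length, Osmr was at 57.5 TPM and Lifr at 4.50 TPM on day 2, a ratio of 12.8. On days 4, 8, 10 and 12 the ratio was 33.9, 6.45, 2.47 and 1.63, and it ended at 1.00, when they stood at 35.4 and 35.3 TPM. The ratio fell between each pair of neighbouring days from day 4 on. The effective length varied among profiles between 4822 and 5150 bases for Osmr and between 7402 and 8377 bases for Lifr. Of the pair, Lifr moved further: it rose 12.5-fold between days 4 and 18 in CPM (counting interval 11.5 to 13.6), and Osmr was 2.67-fold lower (2.58 to 2.76).

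Il6st (ENSMUSG00000021756, chr13:113265216-113297068), the shared chain gp130, was the most abundant of the 10 genes, with a mean of 251 ± 34.7 TPM (SD over 9 days). In CPM it was 678, 1020, 861, 685, 814, 805, 761, 744 and 798 from day 2 to day 18, so that the highest library was 1.50 times the lowest. The line gave -0.10 ± 0.19 (SE, adjusted p = 0.659) and the curve an adjusted p of 0.809. Il6st was above Osmr and Lifr on every day, by 3.42-fold over Osmr on day 4 and 7.22-fold on day 18 in TPM.

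**Figure D2:**
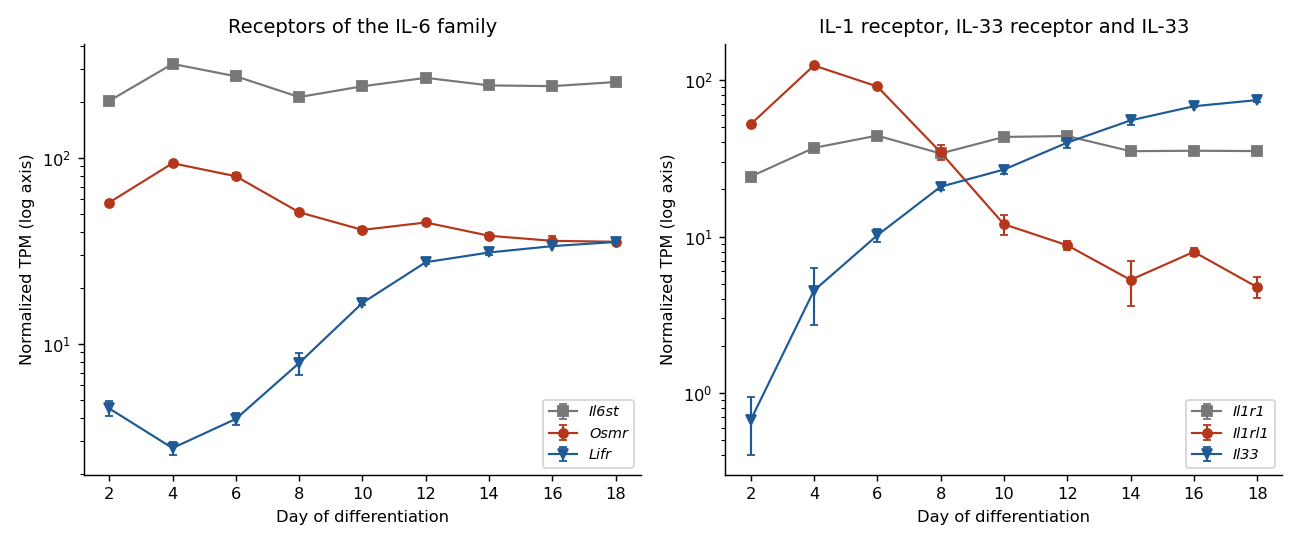
Normalized TPM on a log axis by day of differentiation, for the IL-6 family chains Il6st, Osmr and Lifr (left) and for Il1r1, Il1rl1 and Il33 (right). Points are means of the 3 profiles of a day and bars their SD, which is between sequencing lanes. Osmr and Lifr meet at about 35 TPM on day 18, and Il33 crosses Il1rl1 between day 8 and day 10.

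Of 8 listed receptor chains of the family, with Lifr, Osmr and Il6st counted, 3 rose, 1 fell and 4 did not pass. Il11ra1, the specific chain for IL-11, rose from 19.1 TPM (day 2) to 232 TPM (day 16) and 164 TPM on day 18 (log2 change 3.35, adjusted p = 0.000124). Cntfr, the chain for ciliary neurotrophic factor, rose from 2.48 to 12.4 TPM (2.39, adjusted p = 0.000434). Il6ra, the chain for IL-6 itself, stayed between 1.21 and 2.63 TPM (0.34, adjusted p = 0.48). Lif and Lifr, and Il11 and Il11ra1, changed in opposite directions on the line, the ligand down and the receptor up. The call of Il11 was lost without day 2, 4 or 16. Other pairs did not share this: Il6 fell while Il6ra did not pass. Cntfr rose while its ligand Cntf did not pass (-1.18, adjusted p = 0.0763).

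Socs3 (ENSMUSG00000053113, chr11:117827393-117831361), whose product inhibits gp130 signaling, was at 8.32 CPM on day 2 and 14.9 CPM on day 4, then at 12.9, 9.5, 8.61, 5.26, 5.13, 3.59 and 5.35 CPM on days 6 to 18. The libraries of days 12 to 18 lie below those of days 2 to 10. The fitted change was -1.69 ± 0.38 (SE, adjusted p = 0.00357). Its deposited TPM does not follow these counts, since the effective length that RSEM gave it went from 442 to 2273 bases between profiles, and its TPM was higher on day 18 than on day 2, at 7.85 against 5.54 TPM, although its CPM was 0.643 times that of day 2 (counting interval 0.542 to 0.761). CPM does not use that length.

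Genes known to respond to gp130 and STAT3 did not move as 1 block: of 14 listed, 13 were tested, 5 fell and 4 rose, and the median change was -1.03. Timp1, an inhibitor of matrix metalloproteinases, fell from 1613 TPM (day 2) to 383 TPM (day 18) (-2.53, adjusted p = 0.000619), and Junb, a subunit of AP-1, also fell (-2.0, adjusted p = 0.00245), as did Cebpb and Cebpd. Socs2, a SOCS family gene better known for growth hormone signaling, rose from 16.5 to 67.6 TPM (2.43, adjusted p = 2.81e-05), and so did Cish, Fgl2 and Lcn2. Of the 9 JAK-STAT transducers, 2 rose and 3 fell. Stat3 was among the lower ones, by a small amount (-0.47, adjusted p = 0.00931), and Jak1 had a fitted change of -0.01 (adjusted p = 0.944).

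In the IL-1 system the ligand Il33 and its receptor Il1rl1 crossed. Il33 (ENSMUSG00000024810, chr19:29999604-30035194) was at 1.03, 5.39, 13.7, 26, 37.2, 51.8, 71.8, 87.6 and 105 CPM from day 2 to day 18. Each library was above the one before it. Day 18, with 4464 counts, was 102-fold above day 2, with 44 (counting interval 76.1 to 141). The fitted change was 5.42 ± 0.75 (SE, adjusted p = 0.000228), a value that 97.6% of the genes tested did not exceed, and the curve gave an adjusted p of 7.98e-09. Without day 2 or any other day it stayed between 4.47 and 6.10.

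Il1rl1 (ENSMUSG00000026069, chr1:40486415-40522260), the IL-33 receptor ST2, was at 90.9 CPM on day 2, 192 CPM on day 4 and 132 CPM on day 6. It then fell to 52.4 CPM on day 8 and 17.7 CPM on day 10, and was 12.5, 7.32, 11.0 and 5.89 CPM on days 12 to 18. Day 4 was 32.6-fold above day 18 (counting interval 28.7 to 37.1). The fitted change was -5.36 ± 0.69 (SE, adjusted p = 0.000165), and 0.466% of the genes tested had the same change or a lower one. ST2 is known as a marker of mast cells and of some lymphocytes. The mast cell genes Tpsb2, Tpsab1, Mcpt4 and Fcer1a had no count on any day. Of 8 mast cell markers 3 were tested and 2 rose. These were Kit, with 2 counts on day 2 and 162 on day 18 (log2 change 7.69, adjusted p = 0.000123), and Cpa3 (5.37, adjusted p = 0.0298). The 8 markers summed to 0.155 to 0.352 TPM on days 2 to 6, when Il1rl1 was at 52.1 to 124 TPM. On days 14 to 18 they summed to 1.57 to 2.20 TPM. The 8 lymphocyte markers summed to 1.71 to 5.62 TPM on days 2 to 6, with Cd3e at 0, and to 4.34 to 15.8 TPM on days 14 to 18. Gata3 alone was at 14.1 TPM on day 16. Its TPM did not follow its counts, since its CPM was 1.03 on day 16 against 1.45 on day 2. It did not pass on the line (-0.55, adjusted p = 0.393). Cd4 rose over the days (log2 change 4.54, adjusted p = 0.0292).

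Per length, Il1rl1 was 77.6, 27.4, 8.93 and 1.66 times Il33 on days 2, 4, 6 and 8. On day 10 Il33 was 2.23 times Il1rl1, and by day 18 it was 15.7 times, at 74.4 against 4.75 TPM. The effective length of Il1rl1 varied between 1690 and 2695 bases and that of Il33 between 1398 and 2265 bases among profiles, so these ratios are less exact than the CPM.

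Il1r1 (ENSMUSG00000026072, chr1:40281925-40373043), the signaling receptor for IL-1, was at 73.7, 107, 126, 100, 133, 120, 99.3, 98.8 and 100 CPM from day 2 to day 18. Day 2 was the lowest library and day 10 the highest, 1.80 times it. The line gave 0.09 ± 0.25 (SE, adjusted p = 0.77), with the sign turning to -0.26 without day 2, and the curve gave an adjusted p of 0.0302, which was lost without day 2 (0.34), day 6 (0.0613) or day 10 (0.0683).

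Il1r1 and Il1rl1 belong to a cluster of 6 receptor genes on chromosome 1, from Il1r2 to Il18rap over 466938 bases, and lie 113371 bases apart. The 3 genes of the cluster called on the line all fell, by different fitted amounts whose differences were not tested. Il18rap, a chain of the IL-18 receptor at its far end, fell from 290 counts on day 2 to 1 count on day 18 (log2 change -7.30, adjusted p = 9.28e-05), and Il1rl2, which lies between Il1r1 and Il1rl1, fell by 0.65 on the log2 scale (adjusted p = 0.0261). Il1r2 and Il18r1 had few counts, 135 and 132 over all days, and did not pass. Il18r1 starts 136 bases from the end of Il1rl1. No other annotated gene overlaps any of the 10 genes.

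IL-1 itself was almost absent at the RNA level. Il1b had no count on any day, and Il1a had at most 10 in a day. Il1rn, which encodes the antagonist that occupies the IL-1 receptor, was far above both, at 16.7 TPM on day 2 and between 78.8 and 116 TPM from day 6 on. It passed on the curve (adjusted p = 1.18e-07) and had an adjusted p of 0.0543 on the line. Il1rap, the accessory chain that Il1r1 and Il1rl1 share, stayed between 6.32 and 10.0 TPM (0.22, adjusted p = 0.258).

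Downstream of the IL-1 receptors, of 18 MyD88 and NF-kB transducers, 4 rose, 6 fell and 8 did not pass, with a median change of -0.01. Irak3, an inhibitory member of the IRAK family, rose by 2.03 ± 0.30 (log2, SE, adjusted p = 0.000331), and Chuk, an IkB kinase subunit, had a change of -1.35 (adjusted p = 0.000142). Of 7 listed NF-kB feedback genes, 2 rose (Tnip1 and Nfkbie), 2 fell (Nfkbiz and Tnfaip3) and 3 did not pass. Of 15 genes known to be induced by IL-1, 10 were tested, 6 fell and 2 rose, with a median change of -2.45. Among all genes tested, 26.1% passed downward and 28.3% upward. Ptgs2, the inducible cyclooxygenase, fell from 361 TPM (day 2) to 1.81 TPM (day 18) (-8.57, adjusted p = 5.16e-05), and the chemokines Ccl2 and Ccl7 fell by 3.16 and 3.81 on the log2 scale (adjusted p = 0.000803 and 0.000214). Mmp3, a matrix metalloproteinase, rose (3.92, adjusted p = 0.00285), and so did Icam1 (0.5, adjusted p = 0.0246). Mmp13 and Vcam1 did not pass on the line but passed on the curve (adjusted p = 1.36e-06 and 0.00133). Mmp13 was at 4.76 TPM on day 2, 142 TPM on day 8 and 91.2 TPM on day 18. Ccl20 and Nos2 had no count.

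**Figure D3:**
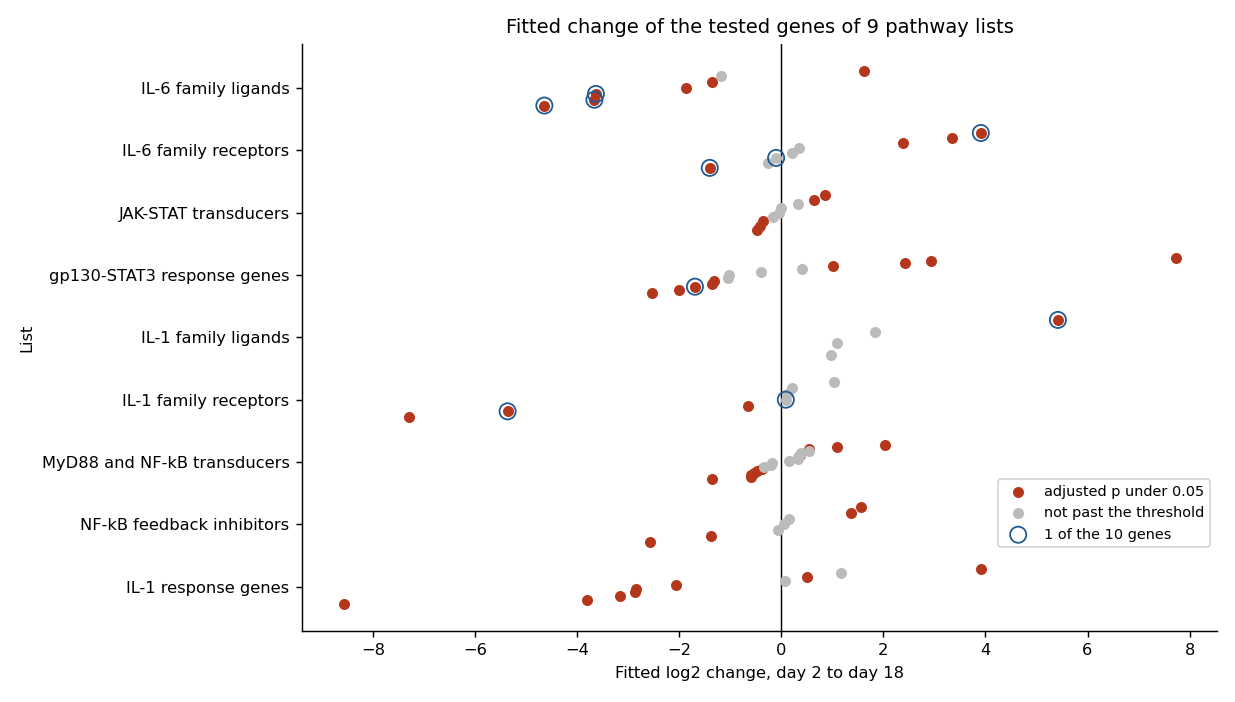
Fitted log2 change from day 2 to day 18 (x axis) of the tested genes of 9 pathway lists (y axis); points within a list are spread for legibility. Red points passed at an adjusted p under 0.05, grey did not, and rings mark the 10 genes. The medians of the JAK-STAT and of the MyD88 and NF-kB transducers lie near 0, at -0.05 and -0.01. Single transducers lie further out, from -1.35 (Chuk) to 2.03 (Irak3). The IL-6 family ligands and the IL-1 response genes lie mostly below 0.

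Over all 9 lists, 97 genes with the 10 included, 83 were tested, 19 rose and 31 fell, which is 60.2% called against 54.3% of all genes. Without the 10 genes it was 17 higher and 25 lower of 73, or 57.5%. The share of called genes was thus near that of the genome. In size of change, the median absolute change of all genes was 0.76 and its 90th percentile 2.94, and Il6, Lif, Il11, Lifr, Il1rl1 and Il33 were beyond the latter.

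**Figure D4:**
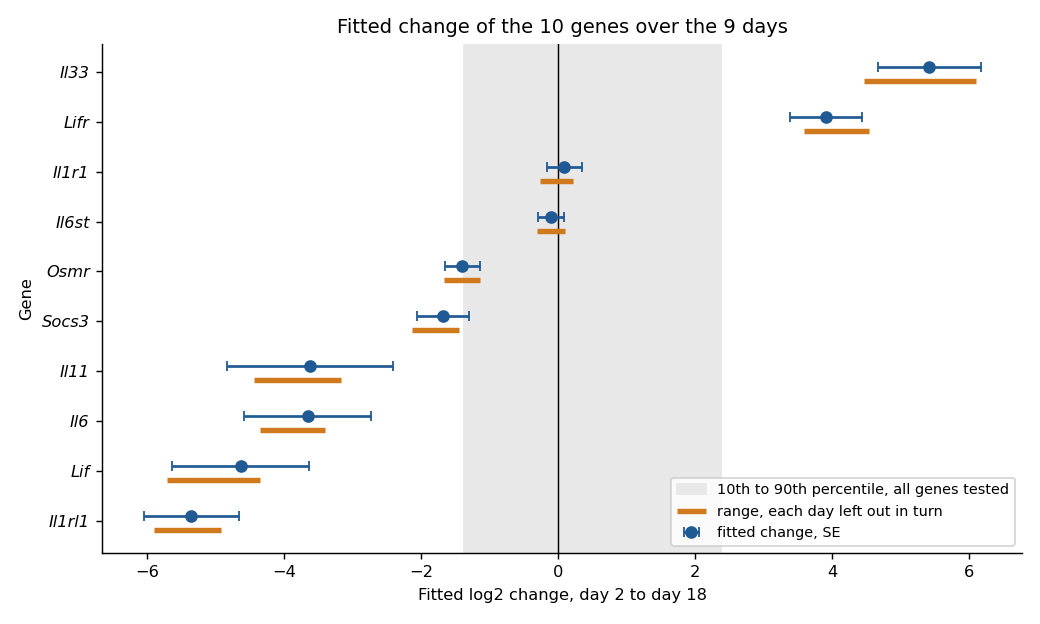
Fitted log2 change from day 2 to day 18 (x axis) of the 10 genes (y axis), with the SE as bars. The lower line of each gene is the range when each of the 9 days was left out in turn, and the grey band runs from -1.37 to 2.38, the 10th to 90th percentile of all 15659 genes tested. Il1r1 and Il6st lie at 0, and Lifr and Il33 lie above the band.

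In mean level over the days, in TPM, the order was Il6st, Osmr, Il1rl1, Il1r1, Il33, Lifr, Socs3, Lif, Il6 and Il11. Il6st (251 TPM) stood above Osmr (53.0 ± 20.6 TPM, SD) by more than the larger SD of the pair, and Socs3 (10.2 ± 5.56 TPM) stood above Lif (2.08 ± 2.04 TPM) by more than it. The TPM of Socs3 rests on an effective length that varied, and in CPM per 1000 bases of the median effective length Socs3 was at 3.60 ± 1.68 and Lif at 1.13 ± 1.14, with the order of the 10 genes unchanged. The other neighbours did not: Osmr, Il1rl1 (37.8 ± 43.3), Il1r1 (36.9 ± 6.34), Il33 (33.4 ± 27.5) and Lifr (18.1 ± 13.8), and Lif, Il6 (1.18 ± 1.05) and Il11 (0.651 ± 0.661), each differed from the next by less than the spread over days. At 1 TPM or more, Il6 and Lif were expressed on 4 of 9 days, Il11 on 3, Il33 on 8 and the other 6 genes on all 9.

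Across the 9 libraries, Il6 and Lif had a Pearson r of 0.96 and Lifr and Il1rl1 one of -0.99 on log2(TPM + 1), which describe points that share libraries and a common trend over days. Outside the 10 genes, the most alike in pattern, among genes with a mean of at least 5 TPM, were Nfkbiz (r = 0.996), Rictor (0.995) and Arpc3 (0.993) for Il1rl1, Itgbl1 (0.997), Rnf150 (0.996) and Fkbp7 (0.996) for Il33, and S100a16 (0.996), Ldb2 (0.995) and Tshz2 (0.995) for Lifr. For Lif they were 9230114K14Rik (0.988), Ppp2r2d (0.986) and Pprc1 (0.984), for Il6 Aup1 (0.987), Pi4k2b (0.983) and Dpysl3 (0.980), and for Osmr Herc1 (0.983), Fbln2 (0.980) and Zfp143 (0.977). High values were common: 619 genes reached 0.95 with Il33, 527 with Lifr and 236 with Il1rl1, but only 2 with Il1r1 and 0 with Il6st, whose closest genes were Scai (0.958) and Eri3 (0.940). No like genes are given for Socs3, since its TPM does not follow its counts, and the TPM of Lif on day 12 includes a profile with an effective length of 406 bases. With a pseudocount of 0.1 TPM in place of 1, none of the 3 genes for Lifr and 1 of 3 for Il33 remained.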

How the data were processed

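RNA sequencing profiles of mouse calvarial osteoblasts at 9 days of differentiation, 27 in all, were used. The authors used Bowtie 0.12.9 for alignment to NCBIM37 transcripts and RSEM for gene levels (version 1.2.8 per the labels, another in the study's methods). As deposited, the estimated counts are RSEM expected counts, not normalized. The deposited TPM and FPKM values divide them by an effective length that varied between profiles, most for Socs3, Lif, Il11, Il1rl1 and Il33. It varied less for Lifr, Osmr and Il1r1. The study's methods call the 3 profiles of a day triplicate samples. They share a barcode, and their counts differed by no more than sampling (chi-square per degree of freedom 0.999 to 1.02), so they were taken as 1 library, summed, rounded and counted as 1 sample. The sources do not settle whether they were separate cultures. The p-values then measure the scatter of 9 libraries around a line or curve, and library and day cannot be told apart. No molecular identifiers are described for the amplified reads.

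Counts were tested with edgeR 4.0.16 (R 4.3.3): genes passing filterByExpr (minimum count 10), factors from the upper quartile, and a quasi-likelihood test on a straight line in day, whose coefficient is scaled to the log2 change from day 2 to day 18, and on a natural spline with 3 degrees of freedom, Benjamini-Hochberg adjusted over 15659 genes, threshold 0.05. The procedure was tested on simulated data. CPM are the summed counts over the normalized library size; TPM were scaled to the upper quartile, as the study did, and averaged over the 3 profiles. Intervals are 95% and exact (Poisson, or binomial for a ratio), and a count of 0 allows up to 3 counts; both cover counting error only. Totals were 22470195 to 62009157 a day. DESeq2 1.42.0, TMM factors, other filters, single profiles and left-out days were alternatives. Named genes were the 10 members, genes of the pathway lists, and for each member with a mean of at least 1 TPM the 3 genes most alike among those of at least 5 TPM (not given for Socs3). The members and lists were chosen with earlier results of these data known. Markers were listed for 8 cell types. Besides those in the report, 5 of 7 osteoclast markers were tested and 3 rose. For endothelial cells 3 of 5 markers were tested, 2 rose and 1 fell. No neutrophil marker of the 6 listed passed the filter on low counts, so none was tested. Among all genes tested, 28.3% passed upward and 26.1% downward. Gene positions are from the GENCODE annotation of NCBIM37, promoters from RefSeq (GRCm38.p6). Some genes of the lists are not reported by name here.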

Additional observations from a re-analysis of the deposited data

How the results depend on the processing

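The number of the 10 genes that followed day was 8 with TMM factors, DESeq2, no filter on counts or days 2 to 6 set against days 14 to 18, and 7 with a minimum count of 50, where Il11 was not tested; leaving out days gave 7 to 8 on the line and 7 to 9 on the curve. On the line the call lost was that of Il11, without day 2, 4 or 16; on the curve it was that of Il1r1, without day 2, 6 or 10. Leaving out each replicate gave 8 of 10 on the line and 8 to 9 on the curve. The sign of the fitted change turned only for genes that did not pass: Il6st from -0.10 to 0.10 without day 4 (range -0.31 to 0.10 over left-out days), and Il1r1 from 0.09 to -0.26 without day 2 (range -0.26 to 0.21) and to -0.05 with early set against late days. The fitted changes kept direction and side of the threshold in 181 comparisons with an alternative and not in 6 (3 turned sign, 3 lost the call), and the causes were not tested.

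The replicate numbers name lanes and did not pair samples: deviations from the day means correlated at 0.0118 on average between profiles of the same number on different days and at -0.00587 between different numbers. With the 27 profiles as separate samples, 10649 genes passed on the line with the replicate block and 10754 without it, and 7 of 9 tested members either way.

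Depth limits Il6 and Il11, with at most 58 and 45 counts in a day. At a threshold of 5 TPM, Il6 and Il11 were expressed on 0 days and Lif on 1. In FPKM as deposited the mean level was 162 for Il6st and 23.7 for Il1r1, a change of scale.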
